A study of Botryllus schlosseri with 12 samples.

Results

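The late phase after injury was compared with 6 h post-injury (hpi) in colonies of the colonial tunicate Botryllus schlosseri. The 6 libraries of 18 and 24 hpi formed 1 group, the late phase, and were set against the 3 libraries of 6 hpi. The comparison was thus between 9 of the 12 libraries of the series. The members were chosen by the time after injury in the labels. In all groups the tissue was an injured colony with all zooids removed, and each library came from a separately grown subclone of 1 isogenic strain, so the spread between replicates is that between subclones of a single strain. The late colonies were left for 18 or 24 h and the others for 6 h in filtered seawater. The 3 colonies of 0 hpi were prepared directly after the surgery. Their libraries were used for context, and they also entered the filter, the scaling and the estimate of spread. No uninjured colony was among the libraries, and small residues of zooid tissue can stay in the tunic after dissection.

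Botryllus schlosseri lives as a colony of small zooids that share a tunic and a network of blood vessels through which hemocytes circulate. When all zooids and buds are lost, a new zooid can arise from what remains, through a bud that appears in the vasculature. Injury responses in animals generally begin with clotting, innate immune proteins and closure of the wound, and the tissue is remodelled afterwards.

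The values are estimated counts of reads for each contig, a transcript sequence assembled from the reads without a genome. Each row is a reading frame predicted in such a sequence, called a contig here, and some sequences hold several rows. The table held 32561 contigs, of which 31383 had enough counts to be tested. The late libraries held 2076597 to 3895273 counts (median 3346236.5) and the 6 hpi libraries 2397316 to 2693477 (median 2468848). Levels are given as CPM, the counts of a contig relative to the total of its library, scaled by TMM factors, which correct for library composition. They are not divided by contig length, so that levels of different contigs are not compared as amounts of RNA. The rows carry no gene names, so the tissue was not checked against marker genes. Among the late libraries, 24 hpi replicate 2 was the smallest and stood apart in the number of contigs detected, and the calls without it are given beside the main counts.

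The first question was how many contigs changed between 6 hpi and the late phase, and in which direction. A contig was called at a Benjamini-Hochberg adjusted p under 0.05 in edgeR's quasi-likelihood test and an absolute log2 fold change above 1, which is a change of more than 2-fold. In the late phase 1564 contigs (4.98% of those tested) fell and 620 (1.98%) rose, so that 71.6% of the 2184 calls (6.96%) were decreases. The median log2 fold change over all tested contigs was 0.0084. Without 24 hpi replicate 2, the late phase had 1530 contigs that fell and 701 that rose. With scaling by library totals alone, 61.4% of calls were decreases, and the median log2 fold change of all contigs was 0.11. In RNA from whole tissue, fewer cells of a type and less RNA per cell cannot be told apart.

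**Figure D1:**
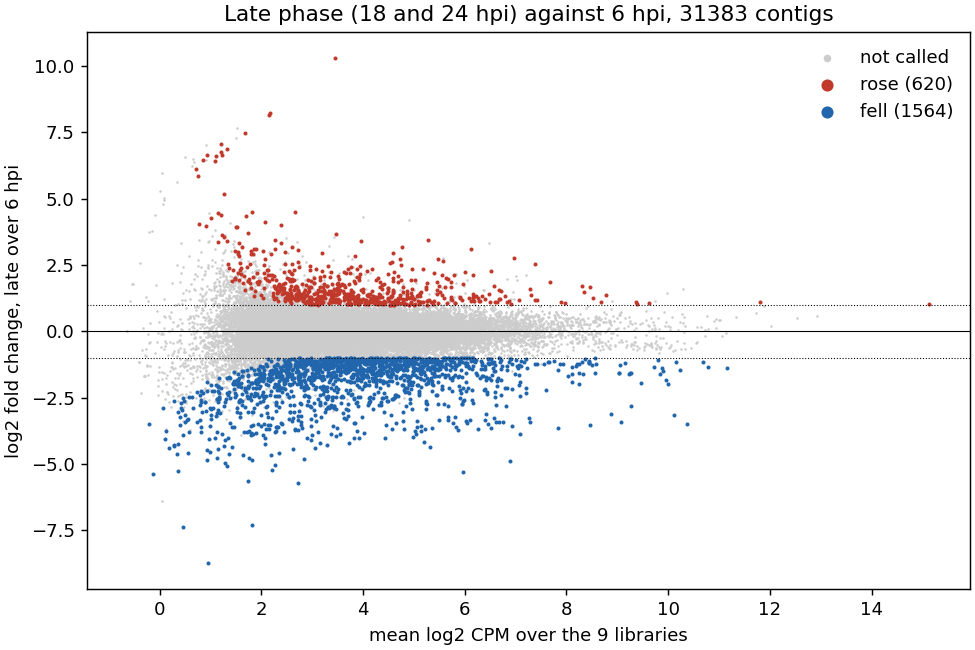
Log2 fold change of the late phase over 6 hpi (vertical axis) by mean log2 CPM over the 9 libraries (horizontal axis), with 1 point per tested contig and dotted lines at the fold threshold of 2. The 1564 contigs that fell (blue) outnumber the 620 that rose (red), and the point furthest to the right is TRINITY_DN17129_c7_g1_i6.p1.

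The decreases were also larger on the median. The contigs that fell had a median log2 fold change of -1.61, with quartiles of -2.32 and -1.23, and 518 of them (33.1%) fell more than 4-fold. The contigs that rose had a median of 1.42, with quartiles of 1.19 and 1.93, and 137 of them (22.1%) rose more than 4-fold. More than 16-fold changes were made by 52 contigs that fell and 24 that rose. The median contig that fell had 9.27 CPM in the late phase, against 28.7 CPM at 6 hpi. The median contig that rose had 16.6 CPM in the late phase and 5.61 CPM at 6 hpi.

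The libraries of the phases were mostly apart in these contigs. All 6 late libraries lay below all 3 of 6 hpi in 1460 of the 1564 contigs that fell, and above them in 555 of the 620 that rose. Over all tested contigs, the late libraries lay wholly below those of 6 hpi in 9.98% and wholly above in 6.29%. The called contigs were chosen for a difference between these same libraries, so their separation was favoured by the choice and is a description.

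Decreases were called most frequently among abundant contigs. Of the 69 contigs with a mean of at least 1000 CPM over the 12 libraries, 12 fell (17.4%) and 2 rose (2.9%). Of the 1173 contigs between 100 and 1000 CPM, 147 fell (12.5%) and 28 rose (2.39%). Of the 17784 contigs between 10 and 100 CPM, 969 fell (5.45%) and 326 rose (1.83%). In the 12357 contigs between 1 and 10 CPM the shares were nearer to each other, with 436 that fell (3.53%) and 264 that rose (2.14%). The mean used for this grouping includes the libraries compared. Calls also depend on the number of counts, which limits contigs of low level. The median log2 fold change of the contigs that fell was -1.87, -1.46, -1.61 and -1.43 from the lowest to the highest group.

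As a part of all RNA counted, the contigs that fell took up 4.26 to 5.1% of a late library (median 4.65%), against 15.1, 16 and 15.4% of the 6 hpi libraries. The contigs that rose took up 6.74 to 9.1% of a late library (median 7.72%), against 3.03 to 3.6% at 6 hpi. Most of the gain belonged to a single contig, TRINITY_DN17129_c7_g1_i6.p1, which made up 58% of the summed increase in CPM. Without it, the contigs that rose held 2.76 to 3.09% of late counts and 1.02 to 1.17% of the counts at 6 hpi. The loss was more widely spread, since 53 contigs were needed to reach 50% of the summed decrease of 114200 CPM. The contigs were chosen on these libraries, so these shares describe the size of the change and do not test it.

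**Figure D2:**
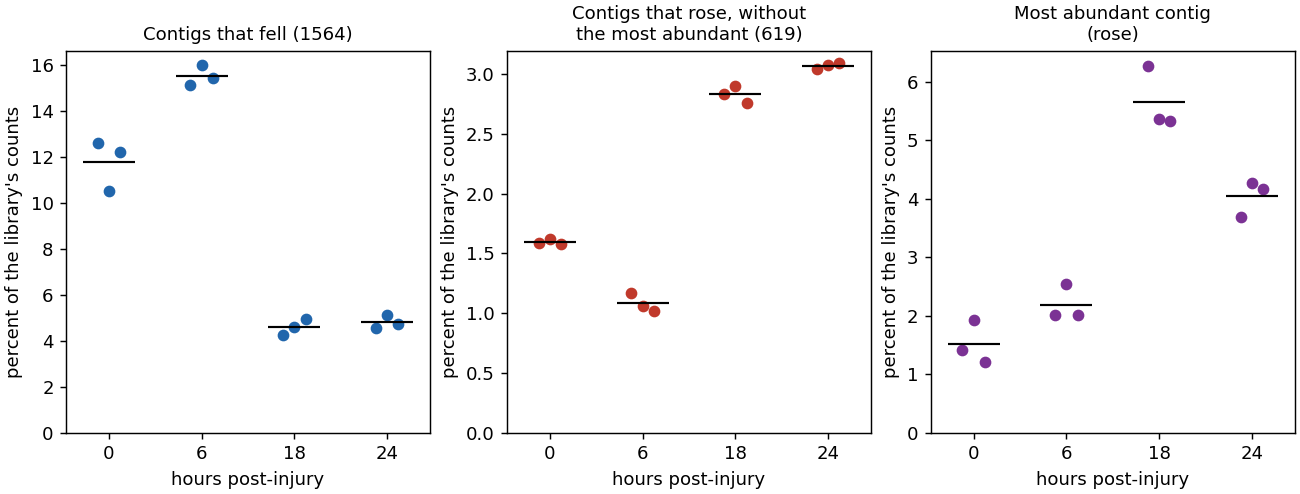
Percent of each library's counts at 0, 6, 18 and 24 hpi on the contigs that fell (blue), on those that rose without TRINITY_DN17129_c7_g1_i6.p1 (red) and on that contig (purple), with 1 point per library and a line at the mean of a time point. The contigs that fell hold 4.26 to 5.1% of late counts and 15.1 to 16% at 6 hpi, and the most abundant contig holds 3.69 to 6.27% of late counts and 2.01 to 2.54% at 6 hpi.

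The second question was whether 18 and 24 hpi differed in these contigs. Set against 6 hpi on its own, 18 hpi gave 1997 calls (6.36% of contigs tested), of which 1495 fell (4.76%) and 502 rose (1.6%). The 1927 calls at 24 hpi (6.14%) were 1295 that fell (4.13%) and 632 that rose (2.01%). Both use the same 3 libraries of 6 hpi. Of the 1564 contigs that fell in the late phase, 1258 were called at 18 hpi alone and 1154 at 24 hpi alone, with median log2 fold changes of -1.68 and -1.56. Of the 620 that rose, 413 were called at 18 hpi alone and 460 at 24 hpi alone, with medians of 1.41 and 1.48. The contigs had been chosen on these same 18 and 24 hpi libraries, so a like change at both times was favoured by the choice.

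The difference between 24 and 18 hpi itself was then tested. Over all contigs, 8 (0.0255%) were called by edgeR between 24 and 18 hpi, 7 of them higher (0.0223%) and 1 lower (0.00319%) at 24 hpi. Among the contigs that fell in the late phase 1 was called, as higher at 24 hpi, and among those that rose 0 were called. These contigs had been called with 18 and 24 hpi as 1 group, where a difference between the 2 times counts as spread. Few calls between 24 and 18 hpi among them were thus favoured by the choice. At an unadjusted p under 0.05, 198 of the contigs that fell (12.7%) and 63 of those that rose (10.2%) differed between 24 and 18 hpi, against 7.02% of all tested contigs. The median difference of 24 minus 18 hpi was 0.105 on the log2 scale for the contigs that fell, 0.05 for those that rose and 0.01 for all. Without 24 hpi replicate 1 the 1 call became 34, among 173 over all contigs. It stayed at 1 without 24 hpi replicate 3, and it was 0 without any of the other late libraries.

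**Figure D3:**
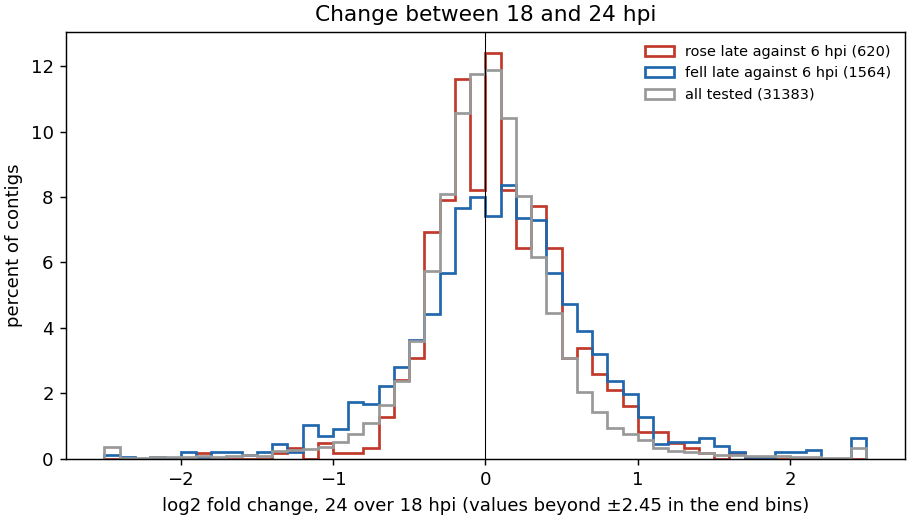
Percent of contigs (vertical axis) by log2 fold change of 24 over 18 hpi (horizontal axis), for the contigs that rose (red), those that fell (blue) and all tested contigs (grey), with values beyond the axis in the end bins. All are centred near 0, with medians of 0.05 for the contigs that rose, 0.105 for those that fell and 0.01 for all.

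Libraries of the late phase and of 6 hpi lay further from each other than libraries of 18 and 24 hpi did. The distance, the root mean square difference in log2 CPM over the tested contigs, was 0.952 ± 0.0507 (SD, 18 pairs) between the late phase and 6 hpi. It was 0.749 ± 0.0808 over the 9 pairs of 24 and 18 hpi, and 0.716 ± 0.128 over the 6 pairs within 18 or within 24 hpi. Within 6 hpi it was 0.73 ± 0.0193 (3 pairs). Pairs share libraries, so the distances were not tested.

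The third question was where the colonies of 0 hpi stood in the contigs that changed between 6 hpi and the late phase. The contigs were sorted by whether the mean at 0 hpi lay above, between or below the means of the late phase and 6 hpi. Of the contigs that fell, 568 (36.3%) had a higher mean at 0 hpi than at 6 hpi. Among tested contigs that were not called, 0 hpi was above both other means in 36.6%, between them in 26.6% and below both in 36.7%. The share of 36.3% is near that of 36.6%. Contigs not called were not chosen for a gap between 6 hpi and the late phase, so their shares are no expected value for called ones. The median levels of the 568 contigs were 45.6, 22.5, 5.87 and 5.61 CPM at 0, 6, 18 and 24 hpi, with the lowest levels in the late phase. In 362 of them all libraries of 0 hpi were above all others. Among the other contigs that fell, the libraries of 0 hpi stood wholly below both in 91 of 372 and wholly between in 97 of 624. The share over all tested contigs was not counted. Standing wholly between requires a gap on each side, which standing above or below does not, so these counts are not alike.

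A further 372 of the contigs that fell (23.8%) had their highest mean at 6 hpi and their lowest at 0 hpi. Their medians were 10.9, 44.1, 14.8 and 17.7 CPM over the same times. The other 624 (39.9%) also had their highest mean at 6 hpi, with a late mean below that of 0 hpi and medians of 14.6, 26.5, 8.19 and 8.65 CPM. Decreases after 6 hpi were thus found both in contigs with a peak there and in contigs that were already lower than at 0 hpi. The contigs were chosen for a high level at 6 hpi against the late phase, so a peak there was favoured by the choice.

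Among the contigs that rose, 372 (60%) had 0 hpi between the other means. Their medians were 9.39, 5.26, 14.9 and 16.2 CPM over the same times, and 0 hpi was nearer to the late phase than to 6 hpi in 225 of them. In 137 (22.1%) 0 hpi was the lowest, with medians of 5.82, 9.18, 27.9 and 28.7 CPM at 0, 6, 18 and 24 hpi. In 111 (17.9%) 0 hpi was the highest, with medians of 14.4, 3.46, 8.86 and 10.3 CPM. In most contigs that rose the mean at 6 hpi was therefore below that of 0 hpi as well as that of the late phase. The contigs were chosen for a low level in the same 6 hpi libraries, so this order was favoured by the choice. The libraries of 0 hpi stood wholly apart, as their mean did, in 40 of the 372, 45 of the 137 and 17 of the 111. For the 372 this again required a gap on each side, and the share over all tested contigs was not counted. Against 0 hpi, 181 of the 620 were called lower at 6 hpi and 25 higher.

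**Figure D4:**
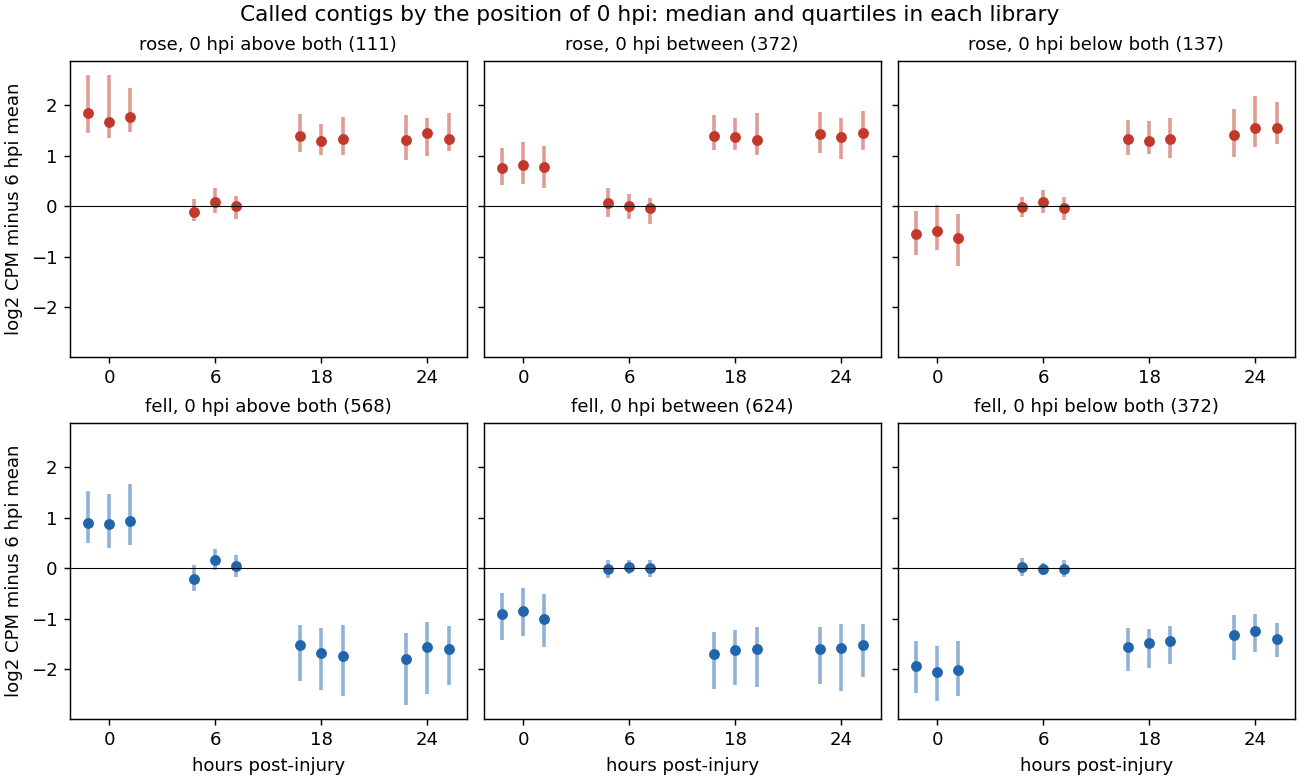
Log2 CPM minus the mean of 6 hpi, in each library at 0, 6, 18 and 24 hpi, for the contigs that rose (red, upper row) and those that fell (blue, lower row), split by the place of the 0 hpi mean, with points at the median over contigs and bars from the lower to the upper quartile. In both classes with 0 hpi below the other means every 24 hpi library lies above every 18 hpi library (median difference 0.23 for contigs that rose and 0.22 for those that fell), while 0 hpi lies above, between or below as the sorting requires, most often between the means in the contigs that rose (372 of 620).

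The comparisons with 0 hpi share libraries with the one described, and their own values are given side by side. Against 0 hpi, the late phase had 3361 calls (10.7% of contigs tested), with 2287 that fell (7.29%) and 1074 that rose (3.42%). The 2979 calls of 6 against 0 hpi (9.49%) were 1561 that fell (4.97%) and 1418 that rose (4.52%). Of the 1564 contigs that fell between 6 hpi and the late phase, 758 were also lower in the late phase than at 0 hpi and 63 were higher. In the same contigs at 6 hpi, 575 were higher than at 0 hpi and 210 lower. Of the 620 that rose, 207 were higher in the late phase than at 0 hpi and 16 lower. At 6 hpi 25 of these were higher than at 0 hpi and 181 lower. The median log2 difference from 0 hpi of the contigs that fell was -1.05 in the late phase and 0.69 at 6 hpi, and that of the contigs that rose was 0.69 in the late phase and -0.77 at 6 hpi.

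Few contigs were switched on or off. In the late phase 21 contigs had fallen to under 1 CPM that had at least 10 CPM at 6 hpi, and 13 of these also had at least 10 CPM at 0 hpi. The opposite change was made by 5 contigs. No count at all was found at 6 hpi for 84 contigs with counts in the late phase, and 14 of these were called. In the late phase no count was found for 14 contigs that had counts at 6 hpi, and 3 of these were called. The late libraries hold 19279520 counts and those of 6 hpi 7559641, and a count of 0 allows a level of up to 0.15 CPM in the late phase and 0.41 CPM at 6 hpi (3 counts over the group, for counting error only).

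A supplementary figure of the study ties contigs to genes, and 4 of these contigs were found in the table. They were picked by the study on these libraries, so their directions are not independent evidence. Of the pair that belongs to complement and coagulation, 1 fell and 0 rose, with log2 fold changes of -4.6 for factor XIIIb and -0.23 for C3/5 (median -2.42). Of the 3 regulators of vessels, 2 were matched to a row, and 0 of these were called, with a median of 0.65. Over all tested contigs 4.98% fell and 1.98% rose, with a median of 0.0084, and lists this small cannot be set apart from that.

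Coagulation factor XIIIb is the contig TRINITY_DN13609_c0_g3_i1.p1. In vertebrates the factor XIII B chain is the carrier subunit of the plasma transglutaminase that crosslinks fibrin in a clot. It had 0.312 CPM in the lowest, 1.28 in the median and 2.98 in the highest late library, against 32.1, 50.05 and 32.8 CPM in the 6 hpi libraries. All late libraries were far below all of 6 hpi, and those of 0 hpi were higher still, at 80.9, 131.8 and 172.9 CPM. The contig fell by 4.6 on the log2 scale (SE 0.376, edgeR adjusted p = 1.41e-06). Its level averaged 1.46 ± 1.06 CPM in the late phase (SD, n = 6) and 38.3 ± 10.2 CPM at 6 hpi (SD, n = 3), and rested on 31 and 278 counts. The 3 other contigs of its Trinity cluster, a group of contigs that share sequence in the assembly, fell as well, with log2 fold changes of -5.09 to -4.64.

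C3/5 is the contig TRINITY_DN18533_c0_g2_i2.p1. C3 is the central protein of the complement system, which is cleaved when complement marks a target for removal. It had 716.4, 887 and 988.6 CPM in the lowest, median and highest late library and 995.6, 1038 and 1037 CPM in the 6 hpi libraries. All late libraries were below those of 6 hpi, by little. The log2 fold change of -0.23 did not pass the test (SE 0.177, edgeR adjusted p = 0.468). At 0 hpi the levels were 463.5, 282.8 and 399.4 CPM, and the late phase stood above them by a log2 fold change of 1.19 (edgeR adjusted p = 0.000201). Part of its reads was divided with similar contigs, as its estimates were not whole numbers in 10 libraries. Of the 4 other contigs of its cluster 0 were called, with log2 fold changes of -0.18 to -0.102.

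TIE1/2 is the contig TRINITY_DN13206_c4_g12_i1.p1. In vertebrates TIE receptors are receptor tyrosine kinases of the vessel endothelium. It had 10.7, 15.0 and 20.6 CPM in the lowest, median and highest late library and 10.6, 10.4 and 8.6 CPM in the 6 hpi libraries. Every late library was above every library of 6 hpi, with the lowest late library (24 hpi replicate 2) just above. The log2 fold change of 0.63 did not pass the test (SE 0.236, edgeR adjusted p = 0.0991). Leaving out single libraries gave adjusted p-values of 0.048 to 0.277. Against 0 hpi the late phase was higher by 1.19 on the log2 scale (edgeR adjusted p = 0.00175), while the log2 fold change of 0.56 at 6 hpi against 0 hpi did not pass the test (edgeR adjusted p = 0.228).

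Sox7/17/18 is the contig TRINITY_DN16425_c0_g1_i6.p1. The SoxF transcription factors to which it belongs act in vessel endothelium in vertebrates. It had 50.6, 73.8 and 83.98 CPM in the lowest, median and highest late library, against 36.5, 52.2 and 47.7 CPM in the 6 hpi libraries. The groups overlapped, since the lowest late library (24 hpi replicate 2) was under the highest of 6 hpi. The log2 fold change of 0.66 (SE 0.178, edgeR adjusted p = 0.0211) passed the threshold on p and not that on fold change, so the contig was not called. Against 0 hpi the late phase was higher by a log2 fold change of 1.08 (edgeR adjusted p = 0.000342).

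**Figure D5:**
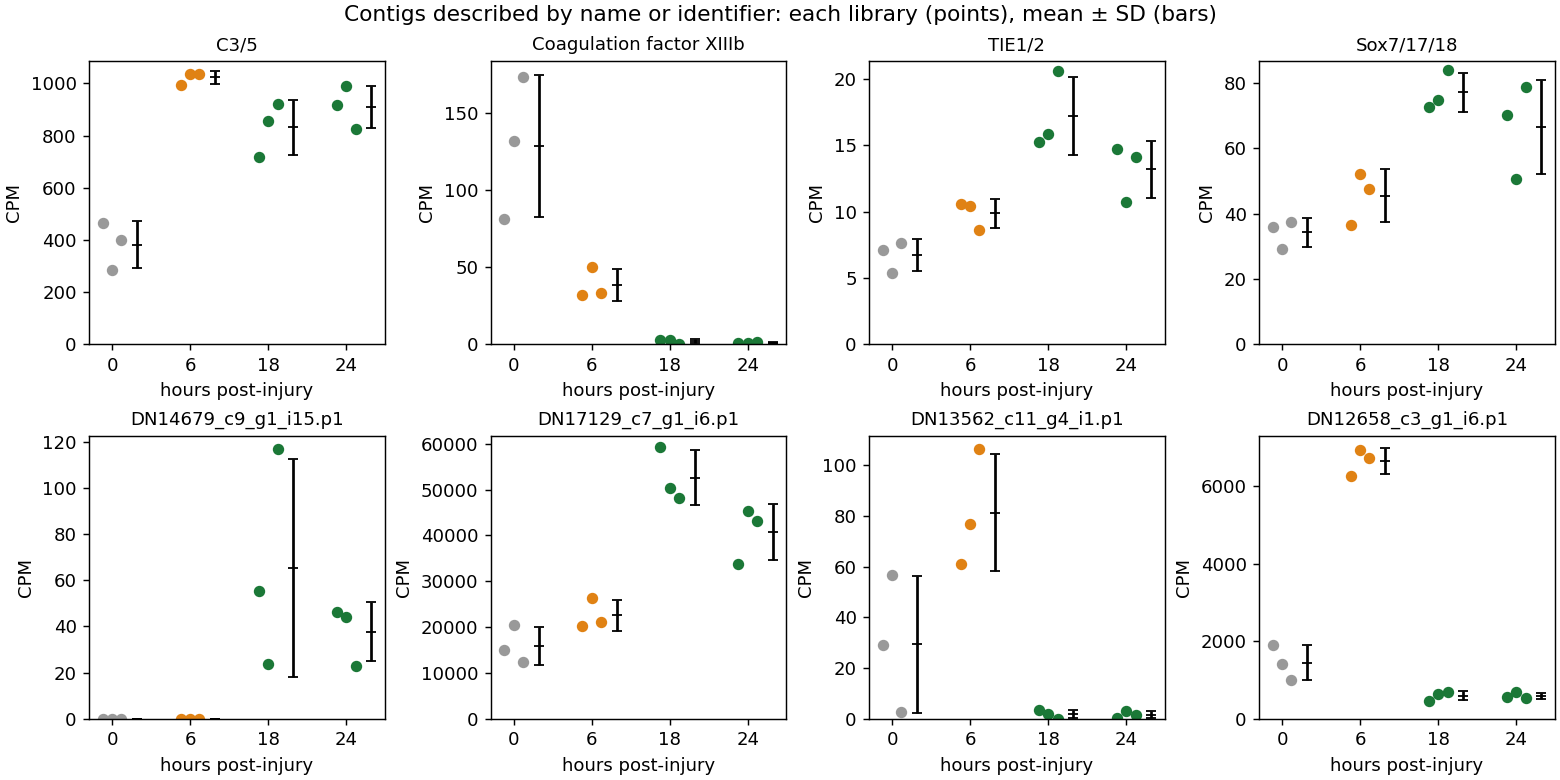
CPM, on linear axes from 0, of the 8 contigs described by name or identifier in each library at 0 (grey), 6 (orange), 18 and 24 hpi (green), with the mean ± SD of each time point beside its 3 points. Factor XIIIb has at most 2.98 CPM in the late libraries and at least 32.1 CPM at 6 hpi, and TRINITY_DN14679_c9_g1_i15.p1 has counts in late libraries only.

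Contigs without a name were taken by a fixed rule, 2 that rose and 2 that fell. The rule chose, among 937 contigs called with a mean of at least 50 counts and without overlap of libraries, the largest fold change and the largest change in CPM in each direction, so their values describe extremes. Contigs under that count were not eligible, and some of these had larger fitted fold changes.

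The largest decrease in CPM was that of TRINITY_DN12658_c3_g1_i6.p1. It had 467.1, 598.5 and 686.3 CPM in the lowest, median and highest late library, against 6274, 6931 and 6727 CPM at 6 hpi. The groups were far apart, and the contig ranked 2 of all contigs at 6 hpi, 130 in the late phase and 58 at 0 hpi. At 0 hpi its levels were 1911, 1422 and 999 CPM, so that it peaked at 6 hpi. It fell by 3.48 on the log2 scale (SE 0.206, edgeR adjusted p = 8.58e-09), which is 11.2-fold. Summed over its Trinity gene the level was 667 ± 95 CPM in the late phase (SD, n = 6) and 6963 ± 376 CPM at 6 hpi (SD, n = 3).

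Among the contigs of this rule, the largest fold decrease was that of TRINITY_DN13562_c11_g4_i1.p1. It had 0, 1.66 and 3.38 CPM in the lowest, median and highest late library, against 60.9, 76.6 and 106.3 CPM at 6 hpi. All late libraries were near the limit of detection, with 30 counts in all, against 598 counts at 6 hpi. It fell by 5.70 on the log2 scale (SE 0.819, edgeR adjusted p = 0.00142). The libraries of 0 hpi differed widely, at 28.9, 56.5 and 2.64 CPM. With limma-voom the change was no longer called (adjusted p = 0.0918, the highest of its 28 alternatives, whose lowest was 5.09e-07).

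The largest increase in CPM was that of TRINITY_DN17129_c7_g1_i6.p1, which ranked 1 of all contigs in the late phase, at 6 hpi and at 0 hpi. It had 33860, 46770 and 59390 CPM in the lowest, median and highest late library, against 20180, 26420 and 21170 CPM at 6 hpi. The groups did not overlap, and the libraries of 0 hpi lay at 14940, 20440 and 12290 CPM. It rose by 1.05 on the log2 scale (SE 0.251, edgeR adjusted p = 0.0105), which is close to the threshold on fold change. The contig was no longer called without 6 hpi replicate 1 (0.99), 6 hpi replicate 3 (1.02, edgeR adjusted p = 0.0504) or 18 hpi replicate 1 (0.99), nor at 24 hpi alone (0.85). Its share of counts was 3.69, 4.27 and 4.16% at 24 hpi, against 6.27, 5.37 and 5.33% at 18 hpi. Every library of 24 hpi was below every library of 18 hpi. The difference between 24 and 18 hpi, -0.37 on the log2 scale, was not called (edgeR adjusted p = 0.836). The 2 other contigs of its cluster had log2 fold changes of 0.97 and 1.01, and 1 of them was called.

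The largest fold increase was that of TRINITY_DN14679_c9_g1_i15.p1. It had 22.9, 45.2 and 116.8 CPM in the lowest, median and highest late library and no counts in any library of 6 or 0 hpi. It was present in every late library with 997 counts in all, at least 121-fold higher than the limit of 3 counts over the 6 hpi libraries (edgeR adjusted p = 0.0132). Its Trinity gene was expressed at 6 hpi through other contigs. Summed over the gene the level was 574 ± 155 CPM in the late phase (SD, n = 6) and 239 ± 67.7 CPM at 6 hpi (SD, n = 3), a log2 fold change of 1.27 (edgeR adjusted p = 0.000702). Its estimates were not whole numbers in 8 libraries, and a division of reads between these contigs was not tested. It was called neither with limma-voom (adjusted p = 0.21, the highest of its 27 alternatives, whose lowest was 2.63e-10) nor in edgeR's test against a log2 fold change of 1 (adjusted p = 0.0584).

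Called contigs of the same Trinity gene, the assembler's unit for contigs of 1 locus, mostly moved the same way. Of the 25469 Trinity genes tested, 1896 held a called contig and 197 held more than 1. In 162 of these all called contigs fell, in 33 all rose and in 2 there were calls in both directions. The contigs of a gene can share reads, and some are reading frames of the same assembled sequence, so they are not independent. Calls were made in 848 of the 9288 tested contigs with divided reads (9.13%) and in 1336 of the 22095 with whole estimates (6.05%). The most contigs that fell in a gene were 6 of 11, and the most that rose were 5 of 5.

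The lists of the most abundant contigs overlapped in part. Of the 100 most abundant contigs of the late phase, 72 were also among the 100 of 6 hpi and 67 among those of 0 hpi, while lists of 24 and 18 hpi shared 84. Among the 100 of the late phase 7 had fallen, 5 had risen and 88 were not called. Among the 100 of 6 hpi 28 fell, 2 rose and 70 were not called. Over all tested contigs 4.98% fell and 1.98% rose. The lists were chosen on the libraries compared, so these counts are a description.

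Measures of a whole library were compared by an exact permutation test over the 9 libraries, two-sided, in which the smallest possible p is 0.0238 and 4 measures were adjusted together. The share of counts on contigs whose reads were divided was 35.1 ± 0.834% in the late phase (SD, n = 6) and 38.1 ± 0.745% at 6 hpi (SD, n = 3). All late libraries were lower (exact p = 0.0238, adjusted p = 0.0952). The distance to the mean of the 0 hpi libraries was 1.03 ± 0.0564 in the late phase and 0.966 ± 0.0168 at 6 hpi, a difference of 0.0619 (exact permutation p = 0.0476, adjusted p = 0.0952). The 100 most abundant contigs held 19.6 ± 1.62% of late counts and 18.8 ± 0.573% at 6 hpi (exact permutation p = 0.429, adjusted p = 0.571). At equal depth, 31800 ± 235 contigs were detected in the late phase and 31900 ± 36.4 at 6 hpi (exact permutation p = 0.976, adjusted p = 0.976). The difference of -63.3 contigs turned to 29.3 without 24 hpi replicate 2, in which 31340 were detected. None of the 4 passed after adjustment. A single measure at the smallest possible p of 0.0238 has an adjusted p of 0.0952 among 4 in this test. It could therefore not pass alone, and the lack of a pass decides nothing about divided reads. With the 10 most abundant contigs in place of 100, their share was higher in the late phase by 3.1 percentage points and passed (exact permutation test, adjusted p = 0.0476). In that setting this share and that of divided reads were both at the smallest possible p. The pass follows from this tie and does not set the share apart from divided reads. Most of the 3.1 percentage points belonged to TRINITY_DN17129_c7_g1_i6.p1, which alone held a mean of 4.85% of late counts and 2.19% at 6 hpi.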

How the data were processed

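Total RNA of 12 injured colonies was sequenced, 3 each at 0, 6, 18 and 24 hpi. The authors removed ribosomal reads, trimmed with Trimmomatic 0.30, assembled contigs with Trinity without a genome, kept reading frames and collapsed similar contigs. They deposited estimated counts from kallisto 0.43.1, which divides reads that fit several contigs. These were rounded to whole numbers here. R 4.3.3, edgeR 4.0.16 (TMM, filterByExpr on the 4 time points, robust quasi-likelihood fit of 0 hpi, 6 hpi and late over 12 libraries), limma 3.58.1 and DESeq2 1.42.0 were used. The p-values of contigs were adjusted over the 31383 tested contigs. Standard errors were obtained from the F statistic and the log2 fold change, and log2 CPM used a prior count of 2. The fit was tested on simulated data, in which 200 of 31383 contigs were changed in the late phase. Of these 76% were called in the right direction, 68% at a log2 fold change of 1.5 and 84% at 2. Among the unchanged contigs 7 were called. As many contigs were raised as lowered, and no other difference between time points was simulated. The simulation therefore does not test the scaling where decreases prevail, as they did among the calls here. No pair of replicates agreed within sampling noise (chi-square per degree of freedom at least 3.14).

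The members and lists were chosen with earlier results of these data known. Contigs were named where a supplementary figure of the study labels them (4 of 5 matched a row, Ets-1 did not, and the TIE1/2 label ends before the reading frame number). At most 2 contigs without a name that rose and 2 that fell were added: those with the largest fold change and the largest CPM change among called contigs with a mean of at least 50 counts and no overlap of libraries. RefSeq's gene table matched 0 contig identifiers. Sequencing batches are not given in the sources used here.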

Additional observations from a re-analysis of the deposited data

Results flagged for a closer look

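In 2 of 12 groups of 6 late libraries examined, 1 library lay far from the others by Dixon's ratio, the gap to the nearest library divided by the range of the group. Chance alone gives about 1 in 20. TRINITY_DN14679_c9_g1_i15.p1 reached 116.8 CPM in 18 hpi replicate 3 (ratio 0.653), against a median of 45.2 CPM over the late libraries. At equal depth 31340 contigs were detected in 24 hpi replicate 2 (ratio 0.719), the smallest library, against a late maximum of 31950.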

How the results depend on the processing

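Depth and 3 libraries at 6 hpi limit contigs of few counts, and divided reads limit contigs with close copies. The late phase had 368 contigs higher and 1644 lower than 6 hpi with limma-voom, 75 and 469 in a test against a log2 fold change of 1, 1167 and 2338 at an adjusted p alone, and 422 and 1000 with whole estimates only, where fewer contigs were tested. The 13 other settings for the whole comparison, apart from single libraries left out, stayed within 1.5 times of both counts. Leaving out single libraries gave 477 to 701 higher and 1237 to 1570 lower, and 0 to 34 of the contigs called between the phases were also called between 24 and 18 hpi (an alternative chosen after seeing the data). In the same setting the differences between the phases were 0.444 to 1.21 percentage points for the 100 most abundant contigs, -92.5 to 29.3 contigs detected, -3.23 to -2.54 percentage points for divided reads and 0.0411 to 0.0732 in distance to 0 hpi. The 10 most abundant contigs, with TRINITY_DN17129_c7_g1_i6.p1 among them, gave 3.1 percentage points (exact permutation test, adjusted p = 0.0476). That adjusted p was reached through a tie with divided reads at the smallest possible p. The 1000 most abundant gave -0.641 (exact permutation test, adjusted p = 0.889). The cause of these changes was not tested. The replicate numbers did not pair the libraries, since deviations of same-numbered libraries correlated at -0.139 to 0.0918 and 2 of 12 libraries correlated best with their own number. With a replicate block 562 contigs were higher and 1517 lower. Of 218 settings for the contigs named, called or not, 209 kept the direction and the side of the threshold, 8 lost a call, 1 gained it (Sox7/17/18 at an adjusted p alone) and 0 reversed.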
